A study of Mus musculus with 2 samples.

Results

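The bins described here carried the transcripts of the neurohypophysial hormones vasopressin (Avp) and oxytocin (Oxt). A bin is a square of tissue 16 µm wide, which can hold parts of several cells. A bin was a member when Avp and Oxt together reached at least 10 unique molecular identifiers (UMIs, counted transcript molecules) and at least 0.5% of all its UMIs. By this rule 800 of 222933 bins with at least 100 UMIs were members. They divided into 316 bins in which Avp had the larger count (Avp-led), 476 in which Oxt did (Oxt-led) and 8 with equal counts. Because members were chosen by their Avp and Oxt counts, their own values are given only to describe the choice and to group or rank members. Both transcripts were left out of the gene comparisons and the totals below. Bins of 1 section are not replicates, so no difference was tested.

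Both sections were coronal brain sections of male C57Bl6 mice that, at an age of 3 months, had received a controlled cortical impact (CCI), a model of traumatic brain injury with a piston impact above the right parietal lobe. The study compared 3 days with 28 days after injury, with 1 mouse and 1 section at each time point. No section of a sham-operated or uninjured mouse was analysed here. Time point, animal, plane of section and library therefore cannot be told apart.

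Vasopressin and oxytocin are made as prohormones by magnocellular neurons of the hypothalamus, mainly in the paraventricular and supraoptic nuclei, and by smaller parvocellular neurons. The prohormone enters the endoplasmic reticulum, is folded with several disulfide bonds, packed into dense-core granules and cut into hormone and neurophysin on the way to the posterior pituitary. Vasopressin retains water and constricts vessels. Oxytocin drives milk ejection and uterine contraction and acts in social behaviour. The neurons are known to switch on immediate early genes when they are stimulated, for example by dehydration or stress.

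The hormones differ by few bases, which is shown here because it bears on how well transcripts of the pair can be separated. The 27 bases that encode each hormone, all in the first exon, are printed 5′ to 3′ on the coding strand of GRCm38, with capitals at the 5 positions that differ:
Avp, chr2:130582446-130582472, minus strand, exon 1 of 3: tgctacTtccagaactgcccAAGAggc
Oxt, chr2:130576267-130576293, plus strand, exon 1 of 3: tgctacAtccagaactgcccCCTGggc
Downstream, in the part that encodes neurophysin, the 577 base Avp mRNA and the 537 base Oxt mRNA shared an identical run of 127 bases. The genes lie 3565 bases apart on opposite strands. The capture used gene-specific probes, whose positions were not used here, so how far a probe of either gene could bind the other transcript was not tested.

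At 3 days 576 of 119617 bins were members (0.482%), and at 28 days 224 of 103316 (0.217%). Members held 85.9% of all Avp and Oxt UMIs of the section at 3 days and 73.5% at 28 days. The hormones made up a median of 1.95% of a member's UMIs at 3 days (highest 11.2%) and 2.37% at 28 days (highest 8.41%). Both hormones were counted in 348 members at 3 days (60.4%) and in 94 at 28 days (42.0%), but the leading count was at least 3 times the other in 85.4% and 88.0% of members. At the threshold, 20 members at 3 days and 16 at 28 days had exactly 10 hormone UMIs, while 22 and 18 bins fell just outside with 9. The lowest hormone share of a member was 0.504% at 3 days and 0.550% at 28 days. With 10 or more hormone UMIs, 38 bins at 3 days and 1 bin at 28 days fell below the share, the highest at 0.495% and 0.481%.

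Members were deeper than the bins around them. Neighbours, here all other bins with at least 100 UMIs whose nearest member lay within 40 bins (640 µm), numbered 29037 at 3 days and 26594 at 28 days. The median member held 1716 UMIs against 829 in neighbours at 3 days, and 1278 against 571 at 28 days. The sections held 120615873 and 82422389 UMIs over all bins. Levels are therefore given as counts per 1000000 UMIs (CPM) summed over the bins of a group, with Avp and Oxt taken out of the totals. Of the array positions, 84781 bin names occurred in both sections; they name places on the array, not cells.

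The members lay in a few compact patches. Members within 10 bins (160 µm) of each other were joined, which gave 11 patches at 3 days and 13 at 28 days, and 4 of them held at least 50 members. In each section 1 large patch lay nearer to bins rich in ependymal transcripts, around the midline, and 1 lay farther from the midline and nearer to the edge of the tissue. They are called ventricular and ventral as names for these positions only, and no ventricle or nucleus was identified. The patches were drawn after the values had been seen.

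The ventricular patch at 3 days was the largest, with 413 members, of which 19.1% were Avp-led, at a median of 81.6 µm from the nearest bin rich in ependymal transcripts. The ventral patch at 3 days had 129 members, 65.1% of them Avp-led, at a median of 151 µm from the edge of the tissue. At 28 days the ventral patch had 99 members, 91.9% Avp-led, 304 µm from the tissue edge, and the ventricular patch had 83 members, 16.9% Avp-led, 214 µm from ependymal bins. The ventricular patches thus were mostly Oxt-led and the ventral patches mostly Avp-led in both sections. The remaining 34 members at 3 days and 42 at 28 days lay in 9 and 11 small groups of 1 to 11 bins. Of the 29037 neighbours at 3 days, 11449 lay within 40 bins of the ventricular and 6043 of the ventral patch. At 28 days these numbers were 10136 and 5148 of 26594. The other neighbours lay near small groups only. Comparisons with all neighbours thus set members mostly of the large patches against bins partly from elsewhere.

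The side of the injury was read from 6 phagocyte genes (Cd68, Lyz2, Ctsz, Lgals3, Cd52 and Laptm5), since the labels do not say which side of the array it is. Their summed level was 336 CPM on the higher side against 92.6 CPM on the other at 3 days, and 609 against 81.7 CPM at 28 days. All 129 members of the ventral patch at 3 days lay on the injured side, and all 99 of the ventral patch at 28 days on the opposite side. The ventral patches of the sections thus lay on different sides. At 28 days the injured side held a small group of 6 members at a like distance from the midline. Its median was 1512 µm, against 1472 µm for the ventral patch.

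**Figure D1:**
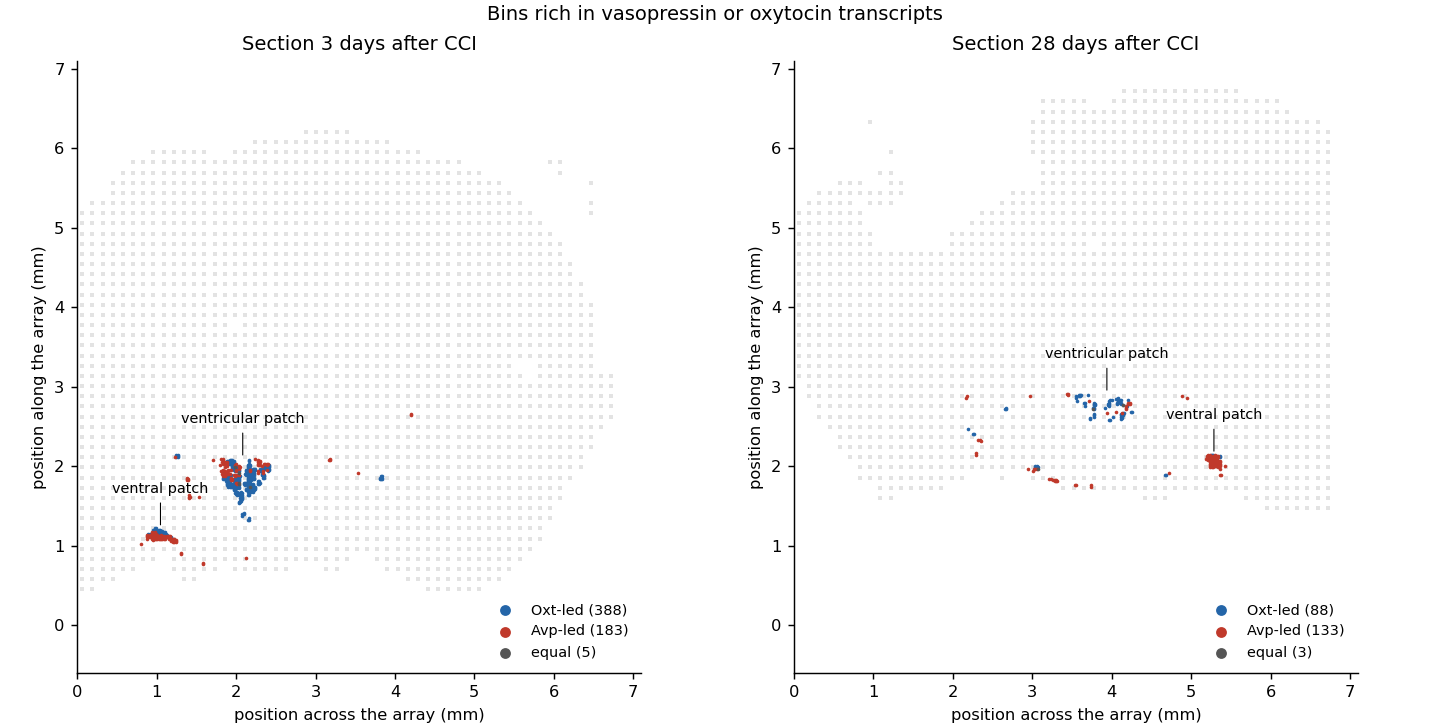
Position of the members in each section, in mm along and across the array, over the tissue outline (grey). Red points are Avp-led, blue points Oxt-led and dark grey points equal bins; at 3 days (576 members) and 28 days (224 members) most points fall in a ventricular patch, mainly blue, and a ventral patch, mainly red.

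The bins carried the transcription factors that mark neuroendocrine neurons of this region. Otp and Sim1, homeodomain and bHLH-PAS factors required for these neurons to form, and Pou3f2 (Brn2), required for their final differentiation, were the clearest. Otp stood at 338 CPM in members against 39.4 CPM in neighbours at 3 days and 368 against 56.7 CPM at the later time, 8.58-fold and 6.51-fold higher. Sim1 stood at 145 against 13.8 CPM and at 164 against 27.2 CPM. The 28 day value rested on 55 UMIs and fell below the minimum used for counts of genes, which was 10 UMIs expected in the smaller group. Pou3f2 stood at 182 against 28.5 CPM and at 209 against 27.7 CPM.

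Arnt2, the partner of Sim1, was less far apart, at 396 against 222 CPM and 475 against 237 CPM. Of the neuroendocrine transcription factor list, 3 of 4 measured genes were at least 2-fold higher in members at 3 days (median log2 ratio 2.89) and 3 of 3 at 28 days (median 2.70). Over all genes measured deeply enough, the median log2 ratio was 0.03 at 3 days and -0.01 at 28 days, 306 of 10601 genes (2.89%) were at least 2-fold higher and 665 (6.27%) at least 2-fold lower at 3 days, and 248 of 7525 (3.3%) were higher and 590 (7.84%) lower at 28 days. These counts describe the libraries, since every gene of a member was measured in the bins that the hormones chose. More cells of a type in a bin and more RNA per cell cannot be told apart.

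Markers of other hypothalamic nuclei were mostly low by gene, but not in sum at 3 days. Of 6 measured genes of the list at 3 days, 4 were at least 2-fold lower and 1 higher, and at 28 days all 4 measured were lower. The higher gene was Sst (somatostatin, log2 ratio 1.16). The list summed to 545 CPM in members against 456 CPM in neighbours at 3 days and 56.8 against 798 CPM at 28 days. By patch at 3 days, it summed to 566 CPM in the ventricular patch against 280 CPM in its own neighbours. The ventral patch had 224 against 175 CPM, with no gene of the list measured. Pmch, the melanin-concentrating hormone precursor of the lateral hypothalamus, stood at 5.82 CPM in members against 113 CPM in neighbours at 3 days, and 5.98 against 446 CPM at 28 days. Vip, a transcript of the suprachiasmatic nucleus, which also holds vasopressin neurons, had 1 UMI in the members of 3 days and 0 in those of 28 days. Grp, of the same nucleus, had 0 in both, out of 1031125 and 334593 member UMIs. Both genes fell below the minimum used for counts, so these UMIs alone do not show a level below that of the neighbours. On the suprachiasmatic and clock list of 16 genes, 0 of 9 measured were at least 2-fold higher and 2 lower at 3 days. At 28 days 0 of 6 were higher and 1 lower. The list's median log2 ratios were -0.56 and -0.65.

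Genes that process and store peptides were higher as a group, but unevenly. The list's median log2 ratio was 0.63 at 3 days, with 4 of 15 genes at least 2-fold higher and none lower, and 0.36 at 28 days, with 3 of 14 higher and none lower. Pcsk1, a convertase that cuts prohormones, led the list at 250 CPM in members against 27.5 CPM in neighbours at 3 days (log2 ratio 3.19, 95% interval 2.98 to 3.39). At 28 days it stood at 362 against 32.4 CPM (3.49, 3.19 to 3.77). These intervals are exact binomial intervals and cover counting error only.

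Ptprn, a protein of the granule membrane, stood at 2016 against 740 CPM and at 2609 against 759 CPM, and Pam, which amidates the end of both hormones, at 191 against 62.9 CPM and 212 against 72.2 CPM. Cadps2, a priming factor for granule release, stood at 60.1 against 23.5 CPM at 3 days. Other genes of the pathway lay within 2-fold of the neighbours. Pcsk2, another convertase, had log2 ratios of 0.22 and 0.49. Cpe, the carboxypeptidase that trims the cut ends, had log2 ratios of -0.07 and -0.13, and Chga, a granin, of -0.64 and -0.65. The granin Scg2 was nearly 2-fold higher at 3 days (log2 ratio 0.94) but not at 28 days (0.15, interval -0.13 to 0.41).

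Chaperones and disulfide-forming enzymes of the endoplasmic reticulum were higher in both sections. At 3 days 8 of 18 measured genes of the folding list were at least 2-fold higher and none lower (median log2 ratio 0.93), and at 28 days 10 of 16 (median 1.16). Hspa5 (BiP), the main chaperone of the compartment, stood at 179 against 67.4 CPM at 3 days and 248 against 63.7 CPM at the later time. Manf stood at 353 against 142 CPM and at 427 against 122 CPM, and Sdf2l1 at 108 against 34.8 CPM and 141 against 30.2 CPM. Hyou1, a co-chaperone of Hspa5, was 2.58-fold and 3.62-fold higher. The disulfide isomerases Pdia4 and Pdia6 were 2.47-fold and 2.28-fold higher at 3 days and 2.82-fold and 2.46-fold at 28 days. Xbp1, a transcription factor of the unfolded protein response, was 2.26-fold and 2.46-fold higher.

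Other members of the list lay near the neighbours. Sel1l, which helps remove misfolded proteins, had log2 ratios of -0.27 and -0.06, Herpud1 of -0.18 and 0.09, and Atf4, a stress-response factor, of -0.06 and 0.64. Calr, the calcium-binding chaperone calreticulin, stood at 58.2 against 48.9 CPM and at 59.8 against 46.5 CPM.

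Many genes of this list are known to share the endoplasmic reticulum stress element, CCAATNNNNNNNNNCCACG, in their promoters. It was searched on both strands from 250 bases before to 50 after the start of each gene in the RefSeq promoters of GRCm38.p6, where it occurred in 39 of 32851 windows (0.119%). Of the 19 genes of the list, 16 had a window and 8 of those held the element, namely Hspa5, Hsp90b1, Calr, Canx, Pdia6, Dnajc3, Syvn1 and Ero1b. Shown are 4 of these 8, with 3 day log2 ratios of 1.42 (Hspa5), 1.19 (Pdia6), 0.90 (Hsp90b1) and 0.62 (Canx) as examples of the element in genes above their neighbours. Calr and Ero1b, not shown, had the lowest of the 8, 0.26 and 0.13. Sequences are on the gene's strand with the fixed letters of the element in capitals:
Hspa5, chr2:34772020-34772048, plus strand: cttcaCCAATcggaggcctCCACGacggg
Pdia6, chr12:17266486-17266514, plus strand: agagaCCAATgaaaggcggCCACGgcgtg
Hsp90b1, chr10:86705633-86705661, minus strand: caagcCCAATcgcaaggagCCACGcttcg
Canx, chr11:50325795-50325823, minus strand: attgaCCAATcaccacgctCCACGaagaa
At 3 days 2 of the 8 genes with the element were at least 2-fold higher in members (median log2 ratio 0.75) against 4 of the 8 without it (median 1.04). At 28 days 4 of 7 with it and 4 of 7 without it were, with medians of 1.09 and 1.16. The element is a match of letters in a window, and no binding was measured.

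**Figure D2:**
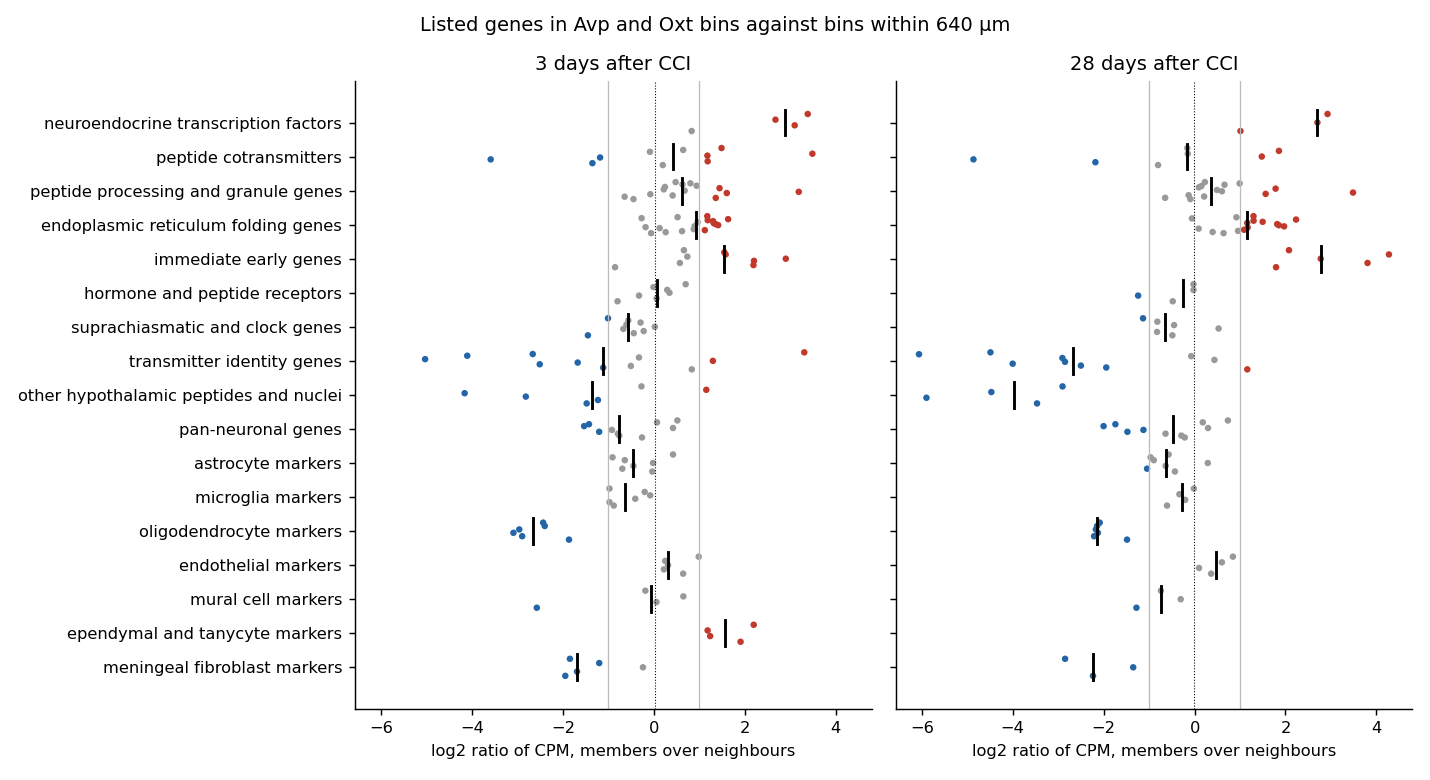
Log2 ratio of CPM in members over neighbours for each listed gene with at least 10 UMIs expected in the smaller group, at 3 days (left) and 28 days (right). Points are genes, red at least 2-fold higher, blue at least 2-fold lower and grey between; black bars are list medians, grey lines mark 2-fold and the dotted line is the median of all genes measured. Transcription factor, folding and immediate early genes lie to the right, oligodendrocyte markers to the left.

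Among peptides that these neurons may release beside their hormone, Pdyn, the dynorphin precursor known from vasopressin neurons, was the furthest above the neighbours. It stood at 104 CPM against 9.26 CPM at 3 days and 341 against 14.4 CPM at the later time, the latter on 114 UMIs and below the minimum for counts. Gal (galanin) stood at 59.2 against 7.43 CPM and at 56.8 against 4.59 CPM, below the minimum in both. Nucb2, the nesfatin precursor, was 2.27-fold and 2.79-fold higher. Tac1, the substance P precursor, had log2 ratios of 0.65 at 3 days and 1.86 at 28 days.

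Trh, the thyrotropin-releasing hormone precursor, was 2.81-fold higher at 3 days but stood at 74.7 against 85.1 CPM at 28 days. Against neighbours within 20 bins its 3 day log2 ratio was 0.92, under 2-fold, and that of Nucb2 was 0.94. Cck (cholecystokinin), although known from oxytocin neurons, was far lower, at 16.5 against 204 CPM and 5.98 against 218 CPM. Penk, the enkephalin precursor, was near the level of the neighbours in both (log2 ratios -0.08 and -0.15). Over the cotransmitter list 4 of 10 measured genes were higher and 3 lower at 3 days, and 2 of 7 higher and 2 lower at 28 days.

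Transcripts of GABA neurons were low in members, and that of a glutamate transporter was near the neighbours. Slc17a6 (VGLUT2) stood at 133 against 167 CPM and 141 against 149 CPM. Gad1, which makes GABA, stood at 42.7 against 246 CPM at 3 days and 8.97 against 168 CPM at the later time, and Gad2, its paralog, at 131 against 419 CPM and 47.8 against 356 CPM. Slc32a1, the vesicular GABA transporter, stood at 20.4 against 132 CPM and 2.99 against 101 CPM. Slc17a7 (VGLUT1) of the cortex and hippocampus had 3 and 0 UMIs in members.

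Th, the tyrosine hydroxylase of catecholamine synthesis, stood at 190 against 19.2 CPM at 3 days and 212 against 19.8 CPM at the later time, 9.93-fold and 10.8-fold higher, the latter on 71 UMIs and below the minimum for counts. Ddc, the next enzyme, was not high, at 23.3 against 33.7 CPM and 5.98 against 42.3 CPM. Slc6a3, the dopamine transporter, had 2 UMIs in members at 3 days and 0 at 28 days. It was also rare around them. At 3 days it was counted in 0.0873% of the ventricular patch's neighbours and 0% of the ventral patch's, too few to compare. Nos1, the neuronal nitric oxide synthase, was 2.46-fold higher at 3 days and stood at 92.7 against 69.5 CPM at 28 days. Calb1 (calbindin) was 1.79-fold and 2.23-fold higher. Of the receptor list no measured gene was 2-fold higher in either section. Rxfp3, the relaxin-3 receptor, had a log2 ratio of 3.06 on 33 UMIs at 3 days and of 3.14 on 10 UMIs at 28 days.

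Immediate early genes, which neurons switch on within minutes of activity, were higher in members, and by more at 28 days. At 3 days 5 of 9 measured were at least 2-fold higher (median log2 ratio 1.55), and at 28 days 5 of 5 (median 2.78). Fos stood at 139 CPM against 30.2 CPM in neighbours at 3 days and 544 against 39.0 CPM at the later time. Npas4, a factor that responds to calcium entry, stood at 53.3 against 18.3 CPM and at 451 against 23.3 CPM. Junb was 3.00-fold and 6.85-fold higher. Arc, by contrast, was below the neighbours at 3 days, at 18.4 against 34.1 CPM, and at 141 against 26.1 CPM at 28 days on 47 UMIs.

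The immediate early level of 28 days differed between patches. Against its own neighbours, the ventral patch had a summed immediate early level of 3936 against 451 CPM, while the ventricular patch of the same section had 339 against 282 CPM. Fos was counted in 59.6% of the ventral patch's 99 bins at 28 days but in 9.64% of the ventricular patch's 83 bins. In neighbours of those patches it was counted in 2.37% and 2.67%. At 3 days Fos was counted in 31.8% of ventral and 16.2% of ventricular bins. The median UMI count was 1822 in the ventral and 1292 in the ventricular patch at 28 days, and 1252 and 1917 at 3 days, so the deeper patch had the larger share at 28 days and the smaller at 3 days.

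The other genes of the list varied in how they differed between patches. In the order ventricular and ventral at 3 days, then ventricular and ventral at 28 days, Npas4 stood at 44.1, 103, 37.6 and 713 CPM. Fosb stood at 18.4 and 42.3 CPM at 3 days, at 287 CPM in the ventral patch of 28 days, where 38 of 99 bins held its 56 UMIs, and had 0 UMIs in the ventricular patch of 28 days. Egr1 stood at 154, 193, 47.0 and 780 CPM. Only the last value was more than 2-fold above the patch's own neighbours (log2 ratio 2.13, interval 1.86 to 2.39). At 3 days Fos stood at 308 CPM in the ventral against 108 CPM in the ventricular patch, but Nr4a1 at 54.4 against 58.8 CPM and Arc at 12.1 against 19.6 CPM, on 9 and 2 UMIs in the ventral patch. At 28 days Nr4a1 stood at 385 CPM in the ventral patch and had 1 UMI in the ventricular patch, and Arc stood at 216 against 37.6 CPM. The ventral and ventricular patches of 28 days also differed in lead, with 91.9% and 16.9% of their members Avp-led, and the part of the lead in the difference between them was not tested. No uninjured section was analysed, and side, animal and time differ between the ventral patches of the sections, so these cannot be told apart.

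Glial markers were lower, most of all those of oligodendrocytes. All 6 oligodendrocyte markers were at least 2-fold lower in members in both sections (median log2 ratio -2.66 and -2.14), with a summed level of 781 against 5270 CPM and 968 against 4140 CPM. Own neighbours of the ventricular and ventral patches summed to 3150 and 4731 CPM at 3 days and 2588 and 5067 CPM at 28 days. Astrocyte markers had medians of -0.45 and -0.64 and microglia markers of -0.64 and -0.27. Of the endothelial markers, all 5 measured were above 0 at 3 days (median 0.31) and all 4 at 28 days (0.48), where 5650 of all 10601 genes and 3723 of all 7525 genes were. In the ventricular patch of 28 days they summed to 122 CPM against 220 CPM in its own neighbours, on 13 UMIs. Of 10 pan-neuronal genes, 3 were above 0 in each section, none was at least 2-fold higher, and 3 at 3 days and 4 at 28 days were at least 2-fold lower, against backgrounds of 6.27% and 7.84%. Their medians were -0.77 and -0.46, with summed levels of 7534 against 9130 CPM and 7403 against 8683 CPM. Uchl1 was 1.43-fold and 1.66-fold higher, while Snap25, a protein of synaptic vesicle release, stood at 1194 against 2261 CPM and 989 against 2160 CPM.

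Ependymal and tanycyte markers were highest just outside the members. At 3 days they summed to 264 CPM in members, 586 CPM in touching bins, 966 CPM at over 16 to 32 µm and 298 CPM at over 32 to 80 µm, but to 89.3 CPM over all neighbours, of which most lay farther away. Against all neighbours 4 of 4 measured markers, of 7 listed, were at least 2-fold higher in members (median log2 ratio 1.58). At 28 days the sum was 5.98 against 67.0 CPM, with 5 of 7 markers at 0 in members and none measured deeply enough. By patch the sum was 327 CPM in the ventricular and 18.1 CPM in the ventral patch of 3 days, and 9.41 and 5.13 CPM in those of 28 days. The folding list summed to 3131, 3947, 2324 and 4593 CPM in the same order. The part of ependymal cells in the values of the ventricular patch of 3 days was not tested.

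The profile fell off over short distances. Neuroendocrine transcription factors summed to 1066 CPM in members at 3 days, 820 CPM in bins touching a member side to side, 411 CPM at over 32 to 80 µm and 250 CPM at over 320 to 640 µm. At 28 days the same distances gave 1219, 846, 516 and 310 CPM. Oligodendrocyte markers ran the other way, from 781 CPM in members to 1407 CPM in touching bins and 5846 CPM in the outermost ring at 3 days. Immediate early genes at 28 days stood at 2490 CPM in members, 493 CPM in touching bins and 366 CPM in the outermost ring. The rings pool all patches, and the ventral patch held 767 of the 833 UMIs of these genes in members. Distance and patch therefore were not separated there. At 3 days immediate early genes stood at 694 CPM in touching bins, against 696 CPM in members, and at 341 CPM at over 32 to 80 µm.

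**Figure D3:**
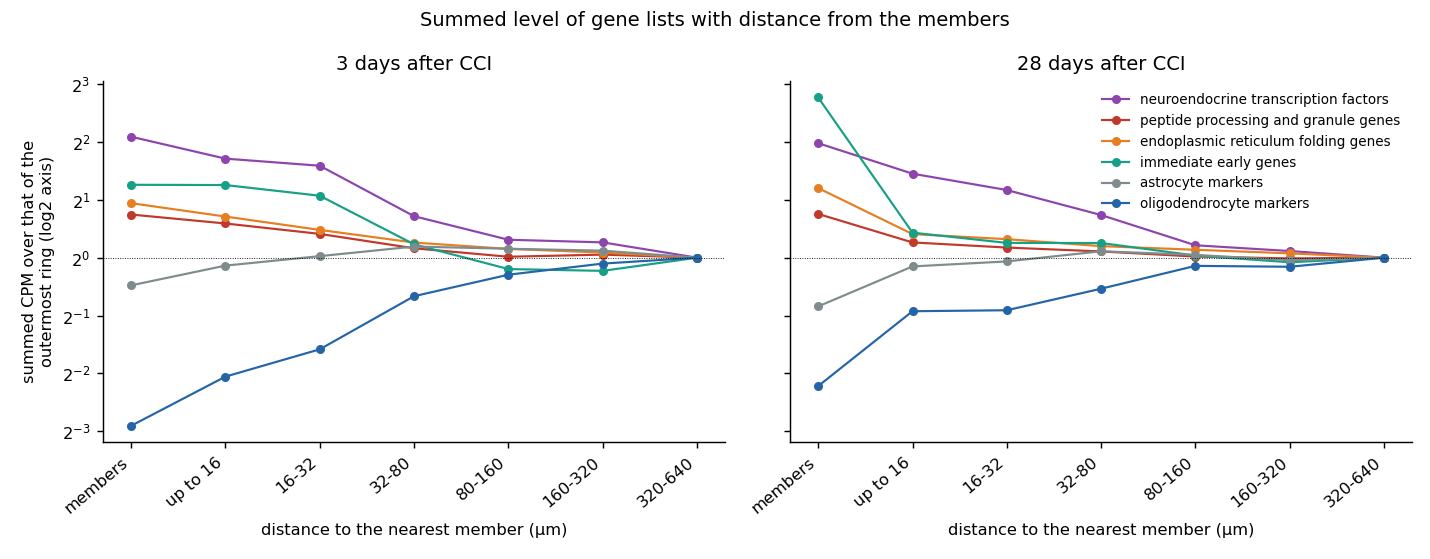
Summed CPM of 6 gene lists in members and in rings of neighbours by distance to the nearest member (µm), divided by the outermost ring's value, on a log2 axis, at 3 days (left) and 28 days (right). The lists of secretory and neuroendocrine genes fall with distance, oligodendrocyte markers rise, and immediate early genes at 28 days fall from 2490 CPM in members to 493 CPM in the first ring. Rings pool all patches of a section, so distance and patch were not separated.

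Ranked by hormone share into 3 bands of nearly equal size, the folding list summed to 2972, 3262 and 3585 CPM from the lowest to the highest band at 3 days and to 2505, 4080 and 4472 CPM at 28 days. Peptide processing genes summed to 8535, 8352 and 8843 CPM at 3 days, with no steady order, and to 7135, 9258 and 10270 CPM at 28 days. The bands differed in patch. At 28 days the lowest band had 57 of 75 bins in the ventricular patch and the highest 51 of 75 in the ventral patch, and at 3 days the lowest had 177 of 192 in the ventricular patch. Band and patch therefore were not separated. The hormone share that ranks the bands is also the value by which members were chosen, so the order is a description and was not tested.

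Genes were ranked, listed or not, if they had at least 50 UMIs and reached the minimum of 10 UMIs expected in the smaller group. Those furthest above the neighbours at 3 days were Pdyn, Sim1, Nog, Ebf3, Th, Pcsk1, Otp, Glp1r, Caprin2, Tent5a, Fosl2 and Stk32a. Gal fell below that minimum and was not ranked. Caprin2, an RNA-binding protein known to act on Avp mRNA, stood at 187 against 24.4 CPM. Nog, the BMP antagonist noggin, stood at 92.1 against 9.15 CPM, Ebf3, a helix-loop-helix factor, at 103 against 10.3 CPM, and Glp1r, the GLP-1 receptor, at 78.6 against 10.2 CPM. At 28 days those furthest above were Npas4, Caprin2, Fos, Pcsk1, Pou3f2, Kcnmb4, Susd1, Junb, Otp, Parm1, Dlk1 and Scn9a. Pdyn, Th and Sim1 fell below the minimum there and were not ranked. Caprin2 stood at 427 against 27.9 CPM. Kcnmb4, a subunit of the BK potassium channel, stood at 595 against 83.1 CPM and Scn9a, a sodium channel, at 167 against 30.6 CPM. Both were also above the neighbours at 3 days, with log2 ratios of 2.12 and 2.31.

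The genes furthest below the neighbours at 3 days were Slitrk6, Gabrd, Tnnt1, Vav3, Gbx2 and Galnt6. Tnnt1 had 1 UMI in members against 1640 in neighbours, and the other 5 had 0 against 462 to 750. At 28 days they were Slc17a7, Pmch, Stum, Unc13c, Rgs16 and Chrm1. Slc17a7 had 0 UMIs against 1807, for which the upper bound of the interval of the log2 ratio was -3.18. Gbx2 is a transcription factor of the thalamus, and Gabrd a subunit of GABA receptors.

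Set against their own neighbours, the 4 patches differed both in secretory genes and in peptides. The peptide processing list had 5 of 15 genes at least 2-fold higher in the ventricular patch of 3 days (median log2 ratio 0.53), 2 of 13 in the ventral patch of 3 days, where Chga (chromogranin A) was at least 2-fold lower on 10 UMIs (0.53), 0 of 12 in the ventricular patch of 28 days (-0.04) and 6 of 14 in the ventral patch of 28 days (0.63). Pcsk1 was above its neighbours by a log2 ratio of 3.22 and 3.26 in the ventricular and ventral patches of 3 days and 2.22 and 3.27 in those of 28 days, on 15 UMIs in the ventricular one. Ptprn followed with 1.26, 1.98, 0.96 and 2.15, and Manf with 1.26, 1.58, 0.91 and 2.48. Against a background of 2.51% of genes at least 2-fold higher in the ventricular patch of 3 days, 3.33% in the ventral patch of 3 days, 0.991% in the ventricular and 6.24% in the ventral patch of 28 days, the folding list had 7 of 18, 7 of 13, 0 of 6 and 11 of 13. None of its genes was 2-fold lower in any of them, against a background of 5.02%, 9.62%, 5.74% and 13.5%. Several single values by patch, among them Pdyn in all 4, fell below the 10 UMI minimum.

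Pdyn stood at 77.2 and 230 CPM in the ventricular and ventral patches of 3 days and 84.7 and 467 CPM in those of 28 days, against 5.25 to 17.9 CPM in their neighbours. Caprin2 stood at 157, 326, 160 and 595 CPM in that order, Th at 186, 260, 84.7 and 246 CPM. The ventral patches were the higher of the pair in each section for all of these genes. Calb1 stood at 749 CPM in the ventral patch of 3 days and 595 CPM in that of 28 days, against 138 and 83.9 CPM in their neighbours. In the ventricular patches it was nearer to them (log2 ratios 0.29 and -0.63).

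Other peptides were found in the ventricular patches. Crh, the corticotropin-releasing hormone that parvocellular neurons send to the anterior pituitary, had 49 UMIs in the ventricular patch of 3 days, in 39 bins, 2 UMIs in that of 28 days and 0 in both ventral patches. Penk had 181 and 52 UMIs in the ventricular patches of 3 and 28 days and 0 and 1 in the ventral ones. Its level was 222 and 489 CPM, against 179 and 217 CPM in the neighbours. Trh had 228 and 20 UMIs in the ventricular patches, at 279 and 188 CPM against 111 and 96.3 CPM in their neighbours, and 27 and 0 UMIs in the ventral ones. Nos1 was 163 and 207 CPM in the ventricular patches, against 32.2 and 26.5 CPM in neighbours, and 84.6 and 20.5 CPM in the ventral ones, against 81.7 and 41.8 CPM. The ventricular patch of 28 days rested on 106303 UMIs and the ventral patch of 3 days on 165460, so counts of a few UMIs there are coarse. Gnrh1, the precursor of gonadotropin-releasing hormone, had 11 UMIs in 6 bins of the ventral patch of 3 days and 0 in the other 3 patches.

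**Figure D4:**
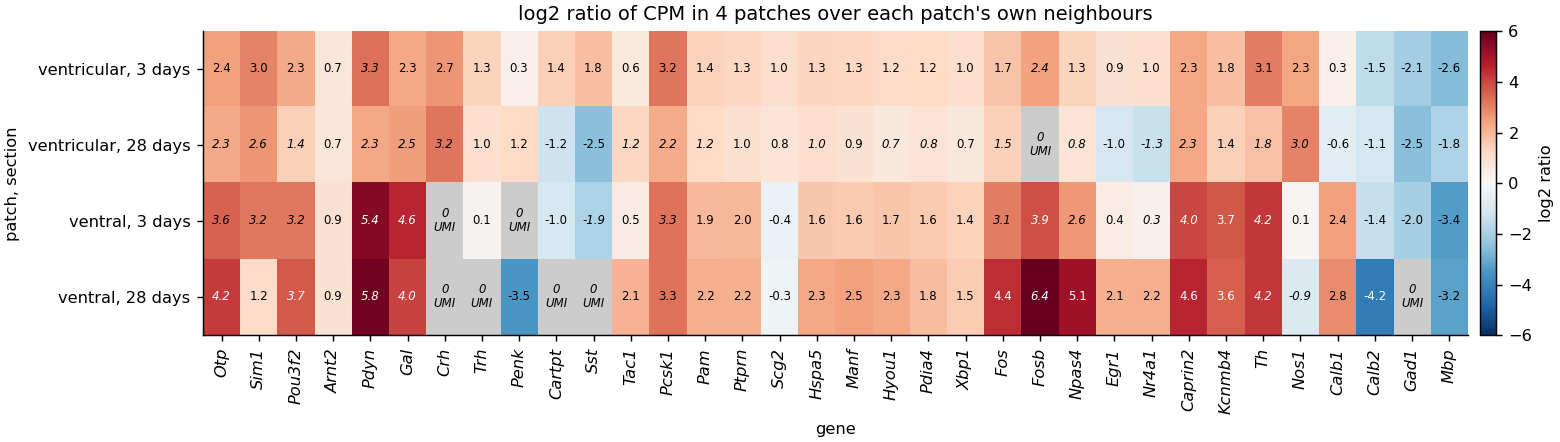
Log2 ratio of CPM in each of the 4 patches (rows) over that patch's own neighbours for the genes named on the x axis (columns), red above and blue below. Italic numbers mark genes below the 10 UMI minimum in that patch and grey cells genes with 0 UMIs there; Pcsk1, Otp and Pdyn are red in all 4 rows, Crh and Penk have UMIs mainly in the ventricular rows and Fosb peaks at 6.4 in the ventral patch of 28 days.

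The genes that stood out were also compared between patches of the 2 sections. Of 4586 genes measured in both ventral patches, 116 were at least 2-fold higher than neighbours in both, 77.9% of those higher at 3 days and 41.1% of those higher at 28 days. For the ventricular patches, 12 of 2925 genes were, 31.6% and 41.4% of the lists. Patches of unlike position also shared genes. The ventricular patch of 3 days and the ventral patch of 28 days shared 53, which was 68.8% of 77 and a smaller share of 331, and the ventral patch of 3 days and the ventricular patch of 28 days shared 16, 18.6% and 55.2% of their lists. The 28 day ventricular patch is the smallest of the 4, and fewer genes could be measured in it.

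Avp-led and Oxt-led members were then set against each other. At 3 days 117 of 7423 genes (1.58%) were at least 2-fold higher in Avp-led and 189 (2.55%) in Oxt-led members, and at 28 days 167 of 2795 (5.97%) and 104 (3.72%). The pool mixes patches. At 28 days 91 of 133 Avp-led members were in the ventral and 67 of 88 Oxt-led members in the ventricular patch, so lead and patch cannot be told apart there. Within the 28 day patches 35 ventral and 209 ventricular genes reached the minimum. Of these, 8.57% and 0.478% were higher in Avp-led bins, and 0 genes and 1.44% in Oxt-led bins. The comparison within patches is therefore given at 3 days, where the ventricular patch held 79 Avp-led and 329 Oxt-led bins and the ventral patch 84 and 45. Of 5316 genes in the ventricular patch 1.35% were at least 2-fold higher in Avp-led and 2.28% in Oxt-led bins, and of 1269 in the ventral patch 3.86% and 2.68%.

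Fos and Junb were higher in Avp-led bins within each patch of 3 days. Fos stood at 261 CPM in Avp-led against 59.9 CPM in Oxt-led bins of the ventricular patch (log2 ratio 2.12, interval 1.48 to 2.78). In the ventral patch it stood at 390 against 156 CPM (1.26, 0.27 to 2.55). Junb stood at 172 against 40.5 CPM and at 223 against 51.9 CPM, the latter on 27 UMIs and below the minimum for counts. Egr1 stood at 246 against 126 CPM and at 232 against 121 CPM, the latter with an interval that spanned 0 (-0.31 to 2.39). Not every gene of the immediate early list went that way. Nr4a1 stood at 83.6 against 51.8 CPM in the ventricular patch but at 37.2 against 86.5 CPM in the ventral patch, on 4 and 5 UMIs. In the ventricular patch Fosl2 stood at 88.8 against 72.8 CPM (0.31, -0.61 to 1.12) and Ier2 at 15.7 against 16.2 CPM. Of the Avp-led bins of that patch, 54 lay on the injured and 25 on the opposite side, out of 220 and 189 members. The part of the side in the values of the ventricular patch was not tested. In the pool, 4 of 7 measured immediate early genes were at least 2-fold higher in Avp-led members at 3 days, and 9 of 9 at 28 days. Markers of some other cells were also higher in Avp-led members at 3 days, where 3672 of all 7423 genes had a log2 ratio above 0. Microglia markers summed to 359 against 258 CPM (log2 ratio above 0 for 4 of 4 measured genes, median 0.84), mural cell markers to 359 against 193 CPM (2 of 2 genes) and endothelial markers to 470 against 305 CPM (4 of 4 genes, median 0.45). At 28 days the sums were 388 against 253 CPM, 258 against 87.5 CPM and 393 against 195 CPM in the same order, and the part of these cells in the values was not tested. Astrocyte markers were not higher in Avp-led members at 3 days, at 3368 against 3655 CPM (3 of 7 genes above 0, median -0.09). Choroid plexus markers stood at 34.0 against 79.9 CPM.

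Other genes were on the Avp-led side in both. Pdyn stood at 125 against 63.1 CPM in the ventricular patch (interval of the log2 ratio 0.19 to 1.76) and at 279 against 138 CPM in the ventral patch (-0.15 to 2.35). Caprin2 stood at 214 against 141 CPM and at 418 against 156 CPM. Ebf3 stood at 172 against 56.6 CPM and at 242 against 69.2 CPM. Apod, a lipid-binding lipocalin of glia and perivascular cells, stood at 251 against 56.6 CPM and at 400 against 17.3 CPM. Crh, in the ventricular patch, stood at 131 CPM in Avp-led against 38.8 CPM in Oxt-led bins (1.75, 0.88 to 2.62).

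On the Oxt-led side, Pcp4, a calmodulin-binding peptide, stood at 739 CPM in Oxt-led against 204 CPM in Avp-led bins of the ventricular patch and at 1453 against 186 CPM in the ventral patch (log2 ratios of Avp-led over Oxt-led -1.84 and -2.94). Nos1 stood at 196 against 62.7 CPM and at 225 against 9.29 CPM, the latter on 14 UMIs. Calb2 (calretinin) stood at 196 against 41.8 CPM in the ventricular patch and had 18 UMIs in Oxt-led and 0 in Avp-led bins of the ventral patch. Calb1 had log2 ratios near 0 in both, -0.04 (-0.42 to 0.31) and -0.09 (-0.63 to 0.48). Trh stood at 298 against 275 CPM in the ventricular patch, on the Avp-led side, and at 102 against 277 CPM in the ventral patch. Penk differed by less than its counting error in the ventricular patch (log2 ratio -0.19, -0.76 to 0.33).

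Some genes of the pooled ranking were unevenly spread over the patches. Ptgds, the prostaglandin D synthase of meninges and oligodendrocytes, led the pooled list at 588 CPM in Avp-led against 68.5 CPM in Oxt-led members at 3 days. It stood at 1617 against 138 CPM in the ventral patch but at 20.9 against 64.7 CPM in the ventricular patch. Meningeal fibroblast markers summed to 176 CPM in Avp-led and 30.0 CPM in Oxt-led members in the same section, and their part was not tested. Sst (somatostatin) stood at 30.9 CPM in Avp-led against 572 CPM in Oxt-led members, with nearly all of its UMIs in the ventricular patch (401 in Oxt-led and 7 in Avp-led bins). Tac2, the neurokinin B precursor, stood at 3.09 against 104 CPM, but of its 73 UMIs in Oxt-led members 4 lay in the ventricular and 18 in the ventral patch, and the rest in the small patches. Cbln4, a synaptic organiser of the cerebellin family, stood at 15.7 against 77.7 CPM in the ventricular patch of 3 days and at 9.29 against 69.2 CPM in the ventral patch, the latter on 5 UMIs with an interval that spanned 0. Cbln1, of the same family, had 50 of its 51 Oxt-led UMIs in the ventricular patch. Ependymal and tanycyte markers were also higher in Oxt-led members at 3 days, at 323 against 118 CPM, and their part was not tested.

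At 28 days the pooled ranking named Fosb, Egr1, Tac1, Junb, Ebf3, Fos, Npas4 and Magel2 on the Avp-led side. Egr1 had 157 UMIs in Avp-led and 3 in Oxt-led members. Magel2, a gene of the imprinted Prader-Willi region, stood at 258 against 19.5 CPM at 28 days, but at 83.6 against 77.7 CPM in the ventricular patch of 3 days and 139 against 86.5 CPM in the ventral patch. On the Oxt-led side were Penk, Gap43, Aplp2, Prxl2b, Pcp4, Sncb, Thy1 and Gpm6a. Gap43, a growth-associated protein of axons, stood at 1041 CPM in Oxt-led against 218 CPM in Avp-led members. In the ventricular patch of 3 days it stood at 570 against 261 CPM. Pcp4 was on the Oxt-led side in both sections, at 1196 against 445 CPM at 28 days.

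**Figure D5:**
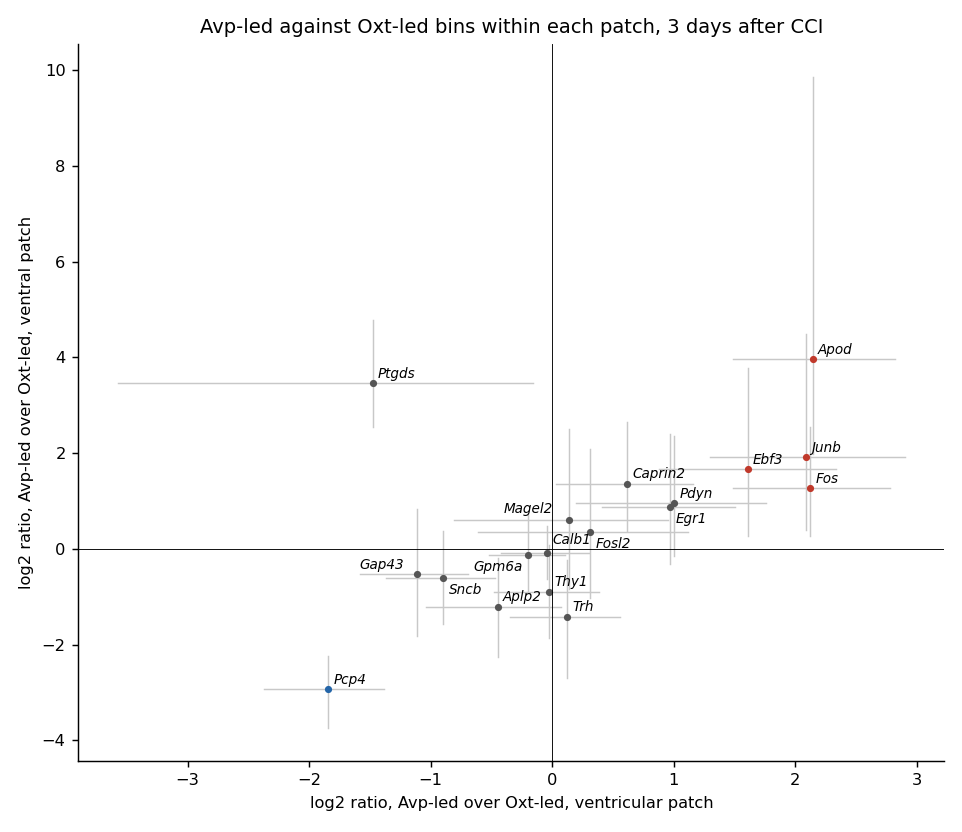
Log2 ratio of CPM in Avp-led over Oxt-led bins within the ventricular patch (x axis) and the ventral patch (y axis) of the 3 day section; grey lines are exact binomial 95% intervals for counting error. Genes shown are a selection, namely those ranked furthest apart between leads in the pooled members and some listed genes. Of these, genes measured in the ventricular patch with at least 20 UMIs in the ventral one are drawn. Among the drawn genes, red points (Fos, Junb, Ebf3, Apod) are at least 2-fold higher in Avp-led bins of both patches. The blue point (Pcp4) is at least 2-fold lower in both, and Ptgds changes sign. Genes outside the selection were not drawn.

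Across the sections, 7525 genes were measured in both. Of these, 99 were at least 2-fold above neighbours in both, 71.2% of the 139 higher at 3 days and 39.9% of the 248 higher at 28 days, and 283 were at least 2-fold lower in both. The genes whose ratio was furthest higher at 28 days were Npas4, Tnnt1, Pvalb, Sh2d3c and Rasd1. Npas4 had log2 ratios of 1.55 at 3 days and 4.28 at 28 days, and Rasd1, a small GTPase, of 0.37 and 2.10. Tnnt1 and Pvalb were far below the neighbours in both sections, with -5.37 and -3.16 for Tnnt1 and -5.03 and -2.91 for Pvalb. Sh2d3c had -1.41 and 0.33. Furthest lower were Sst, Unc13c, Cartpt, Stum and Tm4sf1. The difference between sections was not tested, with 1 section at each time.

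Only Sst and Cartpt were 2-fold apart in opposite directions in the 2 sections. Sst stood at 407 CPM in members against 183 CPM in neighbours at 3 days, and 5.98 against 166 CPM at 28 days on 2 UMIs. Of its 420 UMIs in members of 3 days, 417 lay in the ventricular patch, in 128 of 413 bins, and 5 bins held 26.9% of those. Cartpt, the CART peptide precursor, stood at 149 against 65.8 CPM at 3 days and 23.9 against 115 CPM at the later time. With neighbours taken within 20 bins, its 3 day log2 ratio was 0.73, under 2-fold. In the ventricular patches Sst had 417 UMIs at 3 days and 2 at 28 days, and Cartpt 149 and 6. Since the ventricular patches of the sections held 413 and 83 members at different distances from the ependyma, section, plane and time cannot be told apart.

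The ventricular patch of 3 days crossed the midline, so its sides could be set side by side within 1 section. It held 220 members on the injured and 189 on the opposite side, with 54 and 25 of them Avp-led and median depths of 2096 and 1716 UMIs. Of 7471 genes, 104 were at least 2-fold higher and 83 at least 2-fold lower on the injured side. Otp stood at 339 against 353 CPM, Pdyn at 79.0 against 76.0 CPM and Caprin2 at 162 against 149 CPM. Of the 7 measured immediate early genes 6 had the higher CPM on the injured side, against 50.3% of all 7471 genes. The interval of the log2 ratio lay above 0 for 3 of them, against 2.9% of all genes. These were Fos at 131 against 76.0 CPM (log2 ratio 0.77, interval 0.10 to 1.51), Egr1 at 191 against 103 CPM (0.87) and Nr4a1 at 74.9 against 36.5 CPM. Btg2 stood at 47.8 against 66.9 CPM.

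Trh stood at 335 on the injured against 204 CPM on the opposite side, and Gal had 13 UMIs against 26. Gad1 stood at 20.8 against 66.9 CPM. Csf1r, a microglial receptor, had 22 UMIs on the injured and 5 on the opposite side. The astrocyte markers were mixed. Gfap, of reactive astrocytes, stood at 214 against 167 CPM (log2 ratio 0.35, interval -0.13 to 0.86) and Aqp4 at 104 against 79.1 CPM. Aldoc stood at 1614 against 2241 CPM (-0.47, -0.62 to -0.33), and Slc1a3, Slc1a2, Gja1 and Agt also had the lower CPM on the injured side. The measured ependymal and tanycyte markers, Foxj1, Tmem212, Ccdc153, Dynlrb2 and Rarres2, had the higher CPM on the injured side. Rarres2 stood at 70.7 against 24.3 CPM (log2 ratio 1.47, interval 0.40 to 2.86) and Foxj1 at 83.2 against 57.8 CPM (0.51, -0.30 to 1.40). The sides also differed in the share of Avp-led bins, 54 of 220 against 25 of 189. The parts of ependymal cells and of the lead in these values were not tested.

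The ventricular patch of 28 days held 30 members on the injured and 53 on the opposite side, and 687 genes were measured. Of these, 13 were at least 2-fold higher and 19 at least 2-fold lower on the injured side. Trh stood at 182 against 192 CPM there, on 20 UMIs, where at 3 days it was higher on the injured side. Penk stood at 208 against 649 CPM (log2 ratio -1.57, interval -2.94 to -0.54), and at 3 days at 216 against 231 CPM. Fos stood at 130 against 88.6 CPM, on 5 and 6 UMIs, with an interval of the log2 ratio that spanned 0.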

How the data were processed

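Per the labels and the methods, PFA-fixed, paraffin-embedded sections were assayed with the 10x Genomics Visium HD workflow, which uses gene-specific probes. The authors deposited raw UMI counts per gene and 16 µm bin, made with Space Ranger 4.0.1 (genome build mm10). The tables hold 19070 genes. Replicates were not pooled.

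Counts were summed over the bins of a group and divided by the group's UMIs without Avp and Oxt. Log2 ratios used a pseudocount of 0.5 UMI, and intervals are exact conditional binomial (Clopper-Pearson) 95% intervals. They cover counting error only. A gene was counted when 10 UMIs were expected in the smaller group at equal levels. With 1 section per time point there was no test, and "higher" or "lower" in counts means at least 2-fold. Analysis used Python 3.11.15, numpy 2.4.6, pandas 2.3.3 and scipy 1.17.1. TMM factors came from edgeR 4.0.16 and figures from matplotlib 3.10.9. The interval code was checked on simulated counts.

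Members, gene lists (20 lists, 174 of 177 genes in the tables) and comparisons were chosen with earlier results of these data known. Genes named are those of the lists, the 12 highest and 6 lowest ratios over neighbours and the 8 highest and 8 lowest between leads. Genes ranked for these ratios had at least 50 UMIs and also reached the minimum of expected UMIs used for counts of genes. The 5 highest and 5 lowest differences between sections were named as well. The patches, the sides and the within-patch comparisons were added after seeing the data. Gene coordinates are from GENCODE M21 on GRCm38, promoters from RefSeq GRCm38.p6. Alternatives covered scaling, minimum counts, the member rule, the neighbour rule and single patches.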

Additional observations from a re-analysis of the deposited data

Results flagged for a closer look

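Sst was flagged because members lay at least 2-fold above their neighbours in the section of 3 days and at least 2-fold below in that of 28 days. Its log2 ratio was 1.16 at 3 days and -4.47 at 28 days, a difference of -5.63. Cartpt was flagged for the same reason, with log2 ratios of 1.19 and -2.18 and a difference of -3.37. Neither difference was tested, since each time point had 1 section. Without the other patches, the ventricular patch of 3 days gave log2 ratios of 1.80 for Sst and 1.41 for Cartpt, and that of 28 days -2.51 on 2 UMIs and -1.23 on 6 UMIs.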

How the results depend on the processing

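The count of genes at least 2-fold higher in members was 306 at 3 days and 248 at 28 days. With a minimum of 20 UMIs over both groups in place of 10 expected in the smaller, it was 1030 and 1184, as genes with few UMIs entered. Without the patch with the most members it was 166 at 3 days (ventricular patch left out) and 47 at 28 days (ventral patch left out). The count of genes at least 2-fold apart between Avp-led and Oxt-led members was 306 and 271. It was 550 and 625 with 20 UMIs over both groups, 167 and 49 without the largest patch, 193 and 4 in the ventricular patch alone, 83 and 3 in the ventral patch alone, and 100 at 28 days with members set at 20 UMIs and 1%. Both single-patch settings were added after seeing the data, and fewer bins left fewer genes to measure. The median log2 ratio of peptide processing genes, 0.63 and 0.36, was 0.43 and 0.12 without the largest patch. The other alternatives kept both counts within 1.5 times. Of 178 named genes at 3 days, 6 moved beyond their counting interval with TMM factors and 55 with neighbours within 20 bins. With neighbours at least 3 bins away that held no Avp or Oxt UMI 20 moved, and 42 with neighbours at the members' depth. Of 134 at 28 days, 0, 6, 1 and 12 did. None of them changed sign past 2-fold under these 4 settings.

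No paired analysis was possible because each time point had 1 section and the labels pair no samples. Depth limited the ventricular patch of 28 days most, with 106303 UMIs, where 2925 genes were measured against 10107 in that of 3 days.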

Other observations

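Genes that bring new proteins into the endoplasmic reticulum and attach sugars there were also higher in members. A list of 26 genes of the translocon, the oligosaccharyltransferase and the signal peptidase was written after related genes had been seen to stand out, so its counts describe and support nothing. At 3 days 22 of 24 measured genes were above their level in neighbours and 6 at least 2-fold (median log2 ratio 0.43), and at 28 days all 20 measured were above and 6 at least 2-fold (median 0.63). Over all genes, 5650 of 10601 and 3723 of 7525 were above, 2.89% and 3.3% were at least 2-fold higher, and the medians were 0.03 and -0.01. Among the measured genes, Ssr4, a subunit of the translocon-associated complex, had log2 ratios of 1.63 and 1.82, the highest in each section. Ssr1, of the same complex, had 1.15 in each. Of the oligosaccharyltransferase, Ddost had 1.33 and 1.54, Rpn1 1.06 and 1.44, and Ostc 1.16 and 1.34. By patch, the medians were 0.41 and 0.55 in the ventricular and ventral patches of 3 days and 0.59 and 0.79 in those of 28 days.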
